A study of Mus musculus with 6 samples.

Results

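Oligodendrocyte precursor cells (OPCs) do not turn into myelinating oligodendrocytes in a single step. Between the dividing precursor and the myelin-forming cell lies a short committed stage, in which the platelet-derived growth factor receptor Pdgfra is switched off and a set of transient genes is switched on before the bulk of the myelin genes. The 8 genes described here are known from that stage. Enpp6 is a choline-specific phosphodiesterase, Bmp4 a secreted bone morphogenetic protein, Neu4 a sialidase, and Gpr17 an orphan G protein-coupled receptor that holds cells short of maturation. St18 is a zinc finger transcription factor of the Myt1 family, Bcas1 marks early myelinating oligodendrocytes, Tcf7l2 is a transcription factor that pairs with beta-catenin, and Fyn is a Src family kinase that acts in oligodendrocyte differentiation.

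The 8 genes were chosen by name and all were found among the 22833 genes of the unique molecular identifier (UMI) count matrix of the NG2 line, and among the 19679 genes of the matrix of uninjured cells. Cortical cells were sorted as tdTomato-positive and DAPI-negative from NG2-Cre-ERT2/Ai14-flx mice 3 to 4 months old, in which tamoxifen turns on the reporter in cells that express NG2 (Cspg4), that is, pericytes and OPCs alike. All groups received tamoxifen. The 3 libraries were naïve (no injury), physical injury (saline injected into the cortex) and ischemic injury (ET-1/L-NAME, a vasoconstrictor with a nitric oxide synthase inhibitor). In both injured groups tamoxifen was given 7 days before the injury, and cells were taken 3 days after it. Each library pooled several mice of both sexes, so a group is 1 sample. No difference between groups has a replicate check, no p-value is given, and the intervals printed are exact 95% intervals that cover counting error only. Because the reporter marks 2 lineages from the start, a labelled oligodendroglial cell does not show which labelled cell it came from.

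The libraries held 4306 naïve, 2563 physical injury and 3586 ischemic injury cells, with medians of 4043, 6322 and 7851 UMIs per cell. Of 10445 barcodes, 10 occurred in 2 NG2 libraries, and 3 such cells lay in the clusters described here. Clusters are those deposited by the study, which named cluster 6 OPCs, cluster 4 mature oligodendrocytes and cluster 7 radial glial precursors. The marker lists bore out the first 2 names. In cluster 6 the summed level of 8 OPC genes was 14258 naïve, 15260 physical and 13452 ischemic CPM (UMIs of a gene scaled to a fixed total of all UMIs), and in cluster 4 it was 47.4, 95.7 and 164 CPM. Mature oligodendrocyte genes summed to 61882, 75930 and 83662 CPM in cluster 4 and to 3010, 2439 and 2165 CPM in cluster 6. Cluster 7 carried 9709 CPM of radial glia genes in the ischemic library beside 4704 CPM of OPC genes, and 6530 beside 7751 CPM in the physical library. Pericyte genes made up 1860 CPM of naïve cluster 6 but 249 and 301 CPM of the injured ones, and their part in the comparisons with the naïve library was not tested.

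In the GRCm38 annotation all 8 genes are protein-coding loci on 7 chromosomes. Enpp6 lies at chr8:46986887-47096762 on the plus strand, Bmp4 at chr14:46383520-46390669 on the minus strand, and Neu4 at chr1:94020451-94028334 on the plus strand. St18 lies at chr1:6487231-6860940, Tcf7l2 at chr19:55741820-55933654 and Fyn at chr10:39368855-39565381, all on the plus strand, and Bcas1 at chr2:170346991-170427845 on the minus strand. RefSeq promoter entries (GRCm38.p6) were found for 5 of the 8 genes. The bases before the start site are shown for the 3 of them that, with Gpr17, define the narrow early gene set used further on. Capitals mark matches, on either strand, to the SOX motif ACAANG, the E-box CANNTG bound by basic helix-loop-helix factors such as Olig2, or the TCF/LEF motif ATCAAAG.
Enpp6, chr8:46986637-46986886, plus strand: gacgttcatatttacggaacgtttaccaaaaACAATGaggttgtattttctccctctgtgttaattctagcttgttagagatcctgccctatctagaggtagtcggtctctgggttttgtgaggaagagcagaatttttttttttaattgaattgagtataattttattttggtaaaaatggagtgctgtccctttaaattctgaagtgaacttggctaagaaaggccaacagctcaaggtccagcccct
Bmp4, chr14:46390670-46390919, minus strand: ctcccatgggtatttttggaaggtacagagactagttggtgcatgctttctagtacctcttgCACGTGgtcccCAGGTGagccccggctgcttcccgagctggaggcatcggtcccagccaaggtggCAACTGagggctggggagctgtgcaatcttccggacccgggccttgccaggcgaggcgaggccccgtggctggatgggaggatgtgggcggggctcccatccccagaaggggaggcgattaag
Neu4, chr1:94020243-94020450, plus strand: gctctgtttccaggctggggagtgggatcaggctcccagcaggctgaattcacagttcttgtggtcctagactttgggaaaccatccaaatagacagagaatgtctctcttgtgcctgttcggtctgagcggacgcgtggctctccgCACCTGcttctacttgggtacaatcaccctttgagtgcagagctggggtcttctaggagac

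Enpp6 held 1 SOX match and no E-box, whereas Bmp4 held 3 E-boxes and Neu4 held 1, each without a SOX match. Of the 2 further genes with an entry, Fyn held 1 TCF/LEF match, and Tcf7l2 held 2 SOX matches in 1 of its entries and 1 in the other. Among 32851 promoters 36.3% held a SOX match, 66.2% an E-box and 3.21% a TCF/LEF match, so the first 2 motifs are common. No motif was shared by all 3 of the printed promoters. Gpr17 lies on chromosome 18 on the minus strand, with Lims2 on the other strand.

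The OPC cluster held most UMIs of Enpp6, Neu4 and Gpr17, while the other members were spread differently. Of the UMIs in the NG2 line, cluster 6 held 83.6% of Neu4, 73.6% of Enpp6 and 71.0% of Gpr17, from 695 of 10455 cells. St18 lay in mature oligodendrocytes, with 96.1% of its UMIs in cluster 4 and 3.25% in cluster 6. Bcas1 was split, with 57.0% in cluster 4, 27.6% in cluster 6 and 14.4% in cluster 7. For Bmp4, 63.7% of the UMIs lay in the more numerous pericytes of clusters 0, 1 and 2 and 25.0% in cluster 6, at a like level of 64.5 and 69.5 CPM over all libraries. Tcf7l2 and Fyn were spread over all of them, with 21.4% and 30.3% in cluster 6 and 26.7% and 20.6% in clusters 0, 1 and 2.

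In cluster 6 Neu4 reached 216 CPM (179.7 to 258) in the naïve library, 257 CPM (241 to 273) after physical injury and 234 CPM (219 to 249) after ischemic injury. Gpr17 stood at 492 CPM (436 to 553), 524 CPM (502 to 548) and 634 CPM (609.6 to 659.5). These are levels summed over the 100, 301 and 294 cells of the cluster, and a fold between libraries is within 1 gene, because 3' UMI counts of different genes are not on a common scale. The Neu4 intervals overlap, and the ischemic interval of Gpr17 lies above both others.

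Enpp6 was the member that differed most between libraries. Its level in cluster 6 was 244 CPM (205 to 289) in the naïve, 179.9 CPM (167 to 194) in the physical and 84.3 CPM (75.5 to 93.9) in the ischemic library. The 3 intervals do not overlap, which holds for Bcas1 as well, and the ischemic library was lowest. The share of all genes with such intervals was not computed. The intervals treat UMIs as independent, although 5 cells held 83.5% of the naïve Enpp6 UMIs.
Bmp4 ran another way, with 52.7 CPM (35.6 to 75.3) naïve, 83.0 CPM (74.0 to 92.7) physical and 59.0 CPM (51.7 to 67.1) ischemic. The naïve interval, from 30 UMIs, overlapped both others.

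The transcription factor St18 stood at 234, 214 and 197 CPM in naïve, physical and ischemic cluster 6, with overlapping neighbours in that order. Tcf7l2 stood at 213, 187 and 157 CPM. Bcas1 was lowest in the naïve library at 799.8 CPM (728 to 877) and highest in the ischemic library at 1232 CPM (1198 to 1267), with 1062 CPM (1029 to 1095) after physical injury. The kinase Fyn varied little, at 742, 730.5 and 662 CPM.

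**Figure D1:**
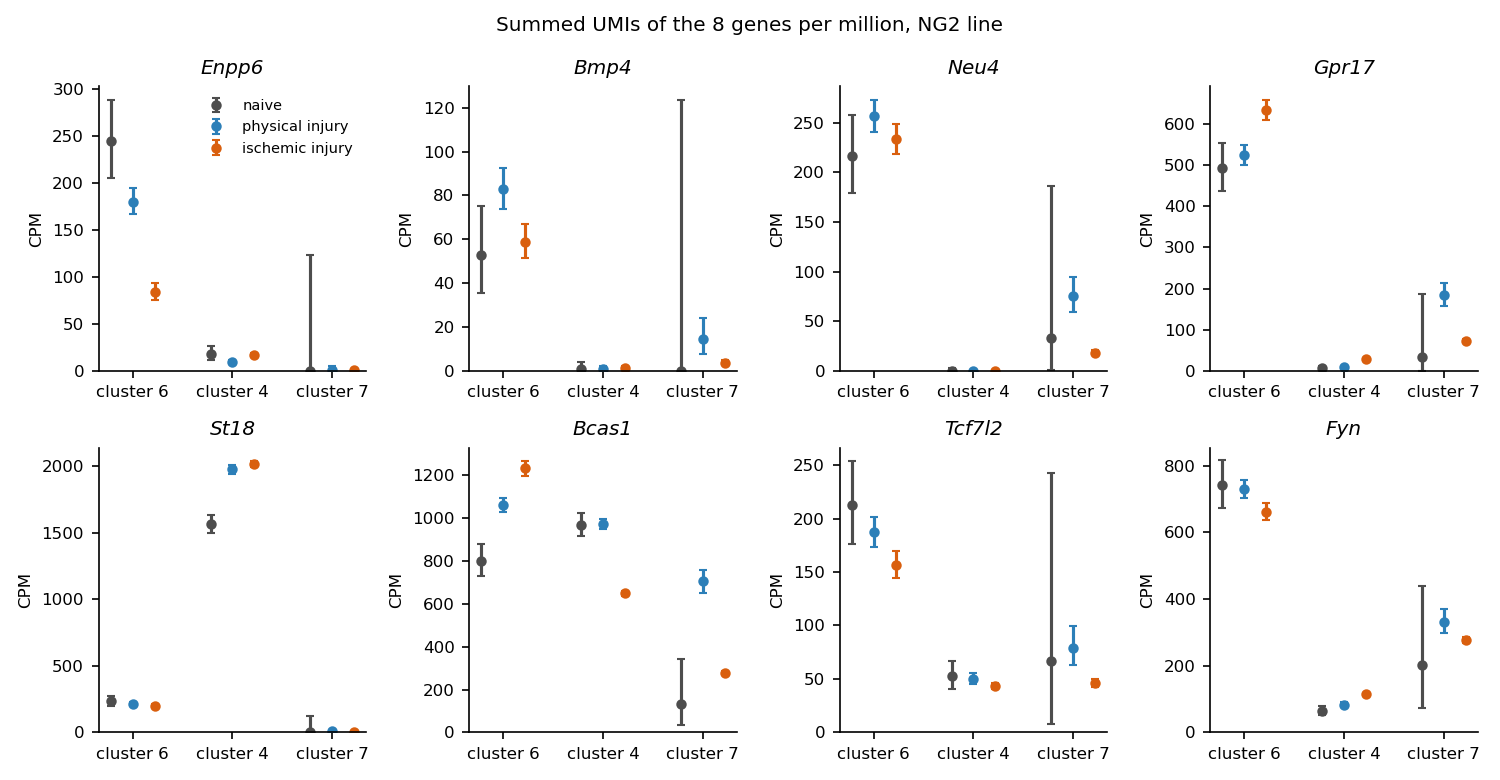
Levels of the 8 genes in clusters 6, 4 and 7 of each NG2 library, in CPM on linear axes that start at 0, with a scale of its own for each gene. Points are summed counts of 1 library, bars are exact 95% Poisson intervals (wide for the 17 naïve cells of cluster 7), and Enpp6 in cluster 6 steps down from 244 to 84.3 CPM while Gpr17 in cluster 4 steps up from 6.11 to 29.7 CPM.

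A gene was called different between 2 libraries where it differed at least 2-fold after adding 1 CPM and reached 20 CPM in the higher library. The 2 comparisons with naïve cells share the naïve library. For physical injury against naïve, no member was called in cluster 6. Over all 8328 genes at that minimum, 2.07% were called higher and 2.69% lower, and all 8 members were among them. For ischemic injury against naïve, 1 of 8 members, Enpp6, was called lower, against 3.37% lower and 4.8% higher of 8478 genes. Its log2 ratio was -1.54 (-1.82 to -1.24). For ischemic against physical injury, 1 of 8 members, again Enpp6, was called lower with a log2 ratio of -1.09 (-1.29 to -0.90), against 0.547% lower and 1.5% higher of 8226 genes. The median log2 ratio of all genes lay between 0.01 and 0.04 in the 3 comparisons.

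The largest difference among the other 7 members in cluster 6 was Bmp4 in physical injury against naïve, with a log2 ratio of 0.65 (0.11 to 1.25). Bcas1 followed in ischemic injury against naïve with 0.62 (0.48 to 0.76). The log2 ratio of Gpr17 in ischemic injury against naïve was 0.37 (0.19 to 0.55), and that of Tcf7l2 was -0.44 (-0.72 to -0.15). For Neu4 it was 0.11 (-0.16 to 0.40) and for St18 -0.25 (-0.51 to 0.03), so neither interval left out 0.

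The Enpp6 UMIs came from few cells. The gene was found in 10 of 100 naïve, 25 of 301 physical and 26 of 294 ischemic cells of cluster 6. The 5 cells richest in Enpp6 held 83.5%, 47.1% and 56.5% of its UMIs there, and single cells reached 45, 71 and 52 UMIs. Without those 5 cells the level was 40.4 CPM naïve, 95.1 CPM physical and 36.7 CPM ischemic, and the log2 ratio (after adding 1 CPM) of ischemic to naïve was -0.14 instead of -1.52, whereas that of ischemic to physical injury was -1.35 instead of -1.08. The deposited cells had already been filtered by the authors, and none exceeded 12% mitochondrial UMIs. A second pass of the stated filters, a stricter choice than the study's own, kept 72, 257 and 288 cells and gave -0.29 for ischemic to naïve and 0.53 for ischemic to physical injury, higher in place of lower.

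Neu4 and Gpr17 were not concentrated in this way in the injured libraries. Their top 5 cells held 8.74% and 12.2% of the UMIs in the physical library and 9.21% and 16.1% in the ischemic library. St18 was as concentrated as Enpp6 there, with 53.7% and 58.3% of its UMIs in 5 cells. In the naïve library the top 5 cells held 76.7% of Bmp4, 59.4% of St18, 57.9% of Tcf7l2, 42.9% of Gpr17 and 26.8% of Neu4 UMIs. Naïve levels of most members thus also rest on few cells. Neu4 was found in 47 of 100 naïve, 226 of 301 physical and 197 of 294 ischemic cells, and Gpr17 in 50, 233 and 210 cells. In the pericyte clusters 0, 1 and 2, which should lack them, 0.313% of cells held a Neu4 UMI, 0.626% a Gpr17 UMI, 0.110% an Enpp6 UMI and 2.48% an St18 UMI. Median depth was 2984 to 5145 UMIs there and 4691, 12390 and 11764 UMIs in cluster 6.

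Since naïve cells were shallower, each cell was also thinned to 2000 UMIs, which left 82, 276 and 270 cells in cluster 6. Neu4 was then found in 28.0%, 37.0% and 33.7% of naïve, physical and ischemic cells and Gpr17 in 42.7%, 51.4% and 51.1%. Bcas1 was found in 50%, 62.7% and 68.1%, an order that its level shared. Enpp6 was found in 12.2% (6.01 to 21.3), 7.25% (4.48 to 11) and 3.70% (1.79 to 6.71) of cells, and St18 in 14.6%, 6.52% and 7.04%. Bmp4 was found in 4.88%, 7.61% and 7.04%.

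The members were not all found in the same cells. At 2000 UMIs per cell most cells with Enpp6 also held St18, but in the ischemic library 12 of 19 cells with St18 had no Enpp6. St18 was found in 10 of 10 naïve cells with Enpp6 and 2 of 72 without it, a difference of 97.2 percentage points (65.6 to 99.7). After physical injury it was found in 16 of 20 cells with Enpp6 and 2 of 256 without, and after ischemic injury in 7 of 10 and 12 of 260, differences of 79.2 (55.5 to 93.5) and 65.4 (30.0 to 88.8) percentage points. Every cell with Enpp6 at this depth also held Bcas1 and Fyn, which was the case for 10, 20 and 10 cells. Bcas1 was found in 43.1%, 59.8% and 66.9% of the cells without Enpp6, and Fyn in 44.4%, 49.6% and 53.8%.

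Bmp4 was found in 3 of 10 naïve and 11 of 20 physical injury cells with Enpp6, against 1 of 72 and 10 of 256 without, differences of 28.6 (4.50 to 63.9) and 51.1 (27.4 to 73.1) percentage points. In the ischemic library it was found in 1 of 10 cells with Enpp6 and 18 of 260 without, a difference of 3.08 points (-7.38 to 37.7). Tcf7l2 was found in 13 of 20 physical injury cells with Enpp6 and 57 of 256 without, a difference of 42.7 points (17.9 to 63.0).

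For Neu4 the interval of the difference took in 0 in each library. In the physical library it was found in 35.0% of cells with Enpp6 and 37.1% without, a difference of -2.11 points (-22.7 to 22.8), and the naïve and ischemic differences were 25.0 (-8.37 to 57.7) and 6.54 (-22.0 to 40.8). Gpr17 differed by 36.2 points (12.4 to 49.5) between physical injury cells with and without Enpp6, by 19.6 (-16.2 to 43.8) in the ischemic and by -3.06 (-33.5 to 32.7) in the naïve library. Between Neu4 and Gpr17 themselves, the most widely found of the 4 narrow members, the difference was 7.15 (-17.9 to 32.1) naïve, 2.37 (-10.3 to 14.9) physical and 22.4 (9.25 to 34.5) ischemic. Without thinning those differences were 42.2, 37.4 and 60.4 points, and at 4000 UMIs the physical difference was 17.8 points.

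**Figure D2:**
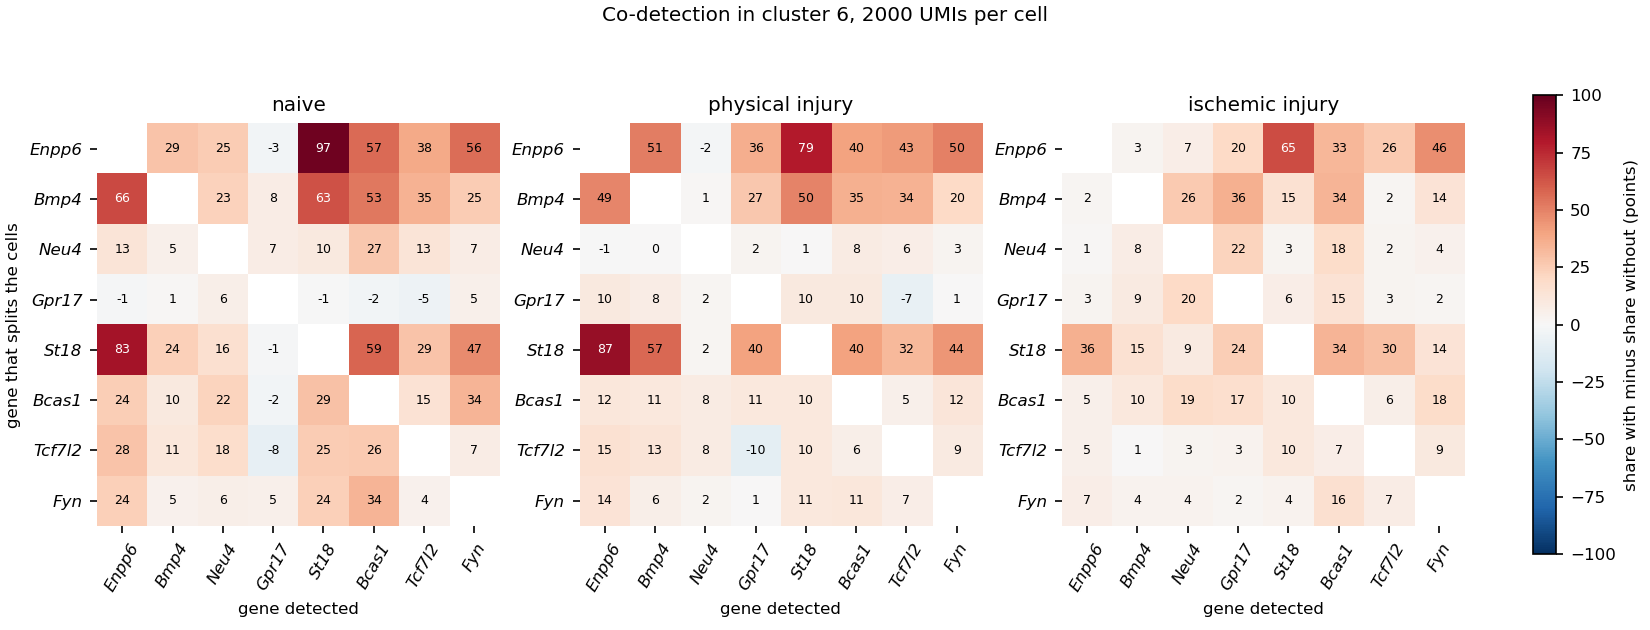
Difference, in percentage points, between the share of cluster 6 cells with a gene among cells with a second gene and among cells without it, at 2000 UMIs per cell, for each NG2 library. Rows name the gene that splits the cells, columns the gene detected, red marks positive and blue negative differences, and the square for St18 in cells split by Enpp6 is at 97.2, 79.2 and 65.4 points and that for Neu4 at 25.0, -2.11 and 6.54 points.

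Cells of cluster 6 with at least 1 UMI of both Enpp6 and St18 were therefore described as a set. The pair was picked after these values had been seen, and Enpp6 and St18 themselves say nothing about the set. It held 10 of 100 naïve cells (10.0%, 4.90 to 17.6), 22 of 301 physical injury cells (7.31%, 4.64 to 10.9) and 18 of 294 ischemic injury cells (6.12%, 3.67 to 9.50). These cells were deeper than the other cells of the cluster, with medians of 8010, 23924 and 25753 UMIs against 4054, 11838 and 11407. At 2000 UMIs per cell the shares were 12.2%, 5.80% and 2.59%. Ischemic minus naïve was then -9.60 percentage points (-18.8 to -2.86), against -3.88 (-11.9 to 2.24) at full depth. Physical minus naïve was -6.40 (-15.8 to 0.69) thinned and -2.69 (-10.8 to 3.52) at full depth, and neither interval leaves out 0. A second pass of the study's filters over the already filtered cells left 5, 11 and 18 of them, and 10, 22 and 17 lay outside the highest doublet scores of their library.

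Pdgfra was nearly absent from these cells, while other OPC genes were lower or higher. Pdgfra, the receptor for the main OPC mitogen, was not found in the 10 naïve cells, in which 3 counts would be 36.1 CPM, and stood at 885 CPM in the other naïve cells. In the injured libraries it stood at 6.13 CPM against 998 CPM (physical) and 24.0 against 769 CPM (ischemic). Cspg4, which encodes NG2, stood at 84.2 against 543.5 CPM naïve, 30.7 against 416 CPM physical and 67.1 against 294 CPM ischemic. Ptprz1, a receptor phosphatase of OPCs, was lower in all 3 libraries as well, at 589, 527.5 and 1108 CPM against 4441, 4279 and 3369 CPM. Tnr (tenascin R), on the same OPC list, was higher, at 5570, 5071 and 5109 CPM against 2347, 3103 and 2856 CPM.

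Myelin genes were present in part. Mbp (myelin basic protein) stood at 3669 CPM in the naïve, 2308 CPM in the physical and 913.5 CPM in the ischemic set, against 49.4, 31.9 and 94.0 CPM in the other cells of the cluster. Mag (myelin-associated glycoprotein) stood at 854, 529.6 and 175 CPM against 12.4, 6.67 and 45.3 CPM. Mobp, a late myelin gene, was all but missing, with 0, 1 and 3 UMIs in the 3 sets. In mature cluster 4 Mobp stood at 1872, 2625 and 3020 CPM. The newly formed oligodendrocyte transcript 9630013A20Rik stood at 1275, 1100 and 434 CPM in the sets against 35.0, 41 and 63.7 CPM elsewhere in the cluster.

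The 6 members that the set was not chosen on were higher in it than in the other cells of cluster 6, in each library. The share of all genes higher in each library, at any size, was not computed. Bmp4 stood at 265, 493 and 235 CPM against 16.5, 22.1 and 38.2 CPM, the widest gap of the 4 narrow members apart from Enpp6. Gpr17 stood at 1419, 1155 and 1501 CPM against 334, 431 and 532 CPM. Neu4 had the narrowest gap, with 481, 348 and 352 CPM against 171, 243 and 219.7 CPM. Its log2 ratios (after adding 1 CPM) of 0.51 (physical) and 0.68 (ischemic) were under 2-fold. The set thus held only part of the Neu4 and Gpr17 RNA, whereas nearly all Enpp6 in the cluster lay in it, as its rule makes likely, with 139, 675 and 312 of 139, 681 and 333 UMIs.

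Bcas1 stood at 3308, 3924 and 3280 CPM in the sets against 371, 637 and 990.2 CPM. Fyn stood at 3031, 3398 and 2630 CPM against 350.0, 335 and 429 CPM. Tcf7l2 was 938 CPM in the naïve, 667 CPM in the physical and 381 CPM in the ischemic set, against 88.5, 116 and 130.5 CPM. Within the sets Tcf7l2, Mbp and Mag were all highest in the naïve and lowest in the ischemic library. Other genes had other orders. The myelin gene Mog had no UMI in the naïve set and stood at 194 CPM in the physical and 74.3 CPM in the ischemic set. Bmp4, Bcas1 and Fyn were highest in the physical set and Gpr17 in the ischemic set. These orders come from 10, 22 and 18 cells and from 1 library each.

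**Figure D3:**
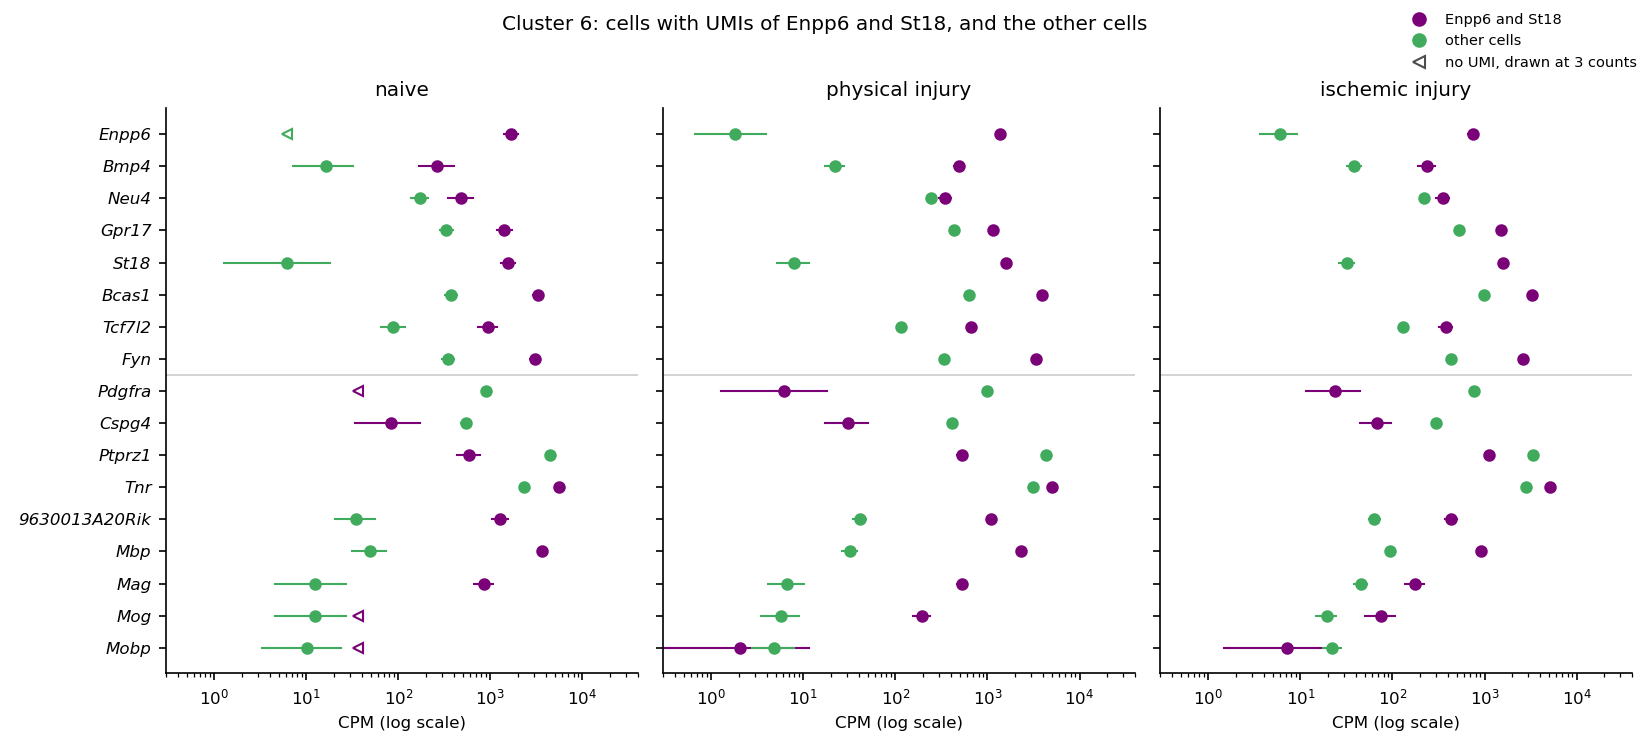
Levels of the 8 genes, 4 OPC genes and 5 later oligodendrocyte genes in cluster 6 cells with UMIs of both Enpp6 and St18 (purple) and in the other cells (green), in CPM on a log axis, for each NG2 library. Bars are exact 95% Poisson intervals, open triangles mark genes with no UMI drawn at the level of 3 counts, and Pdgfra sits far left of the other cells while Mbp and Mag sit to their right.

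The same 2 genes did not pick out the same cells in mature cluster 4. There 13 naïve, 32 physical and 110 ischemic cells held both, with Enpp6 at 158, 86.8 and 76.0 CPM, Mobp at 1614, 2692 and 3080 CPM and no Neu4 UMI. Bmp4 was found there with 0, 0 and 7 UMIs. No cell of cluster 7 held both genes.

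Over all genes, 266 (5.84%) of 4554 that are no members were at least 2-fold higher and 481 (10.6%) at least 2-fold lower in the Enpp6 and St18 cells in both the physical and the ischemic library. In comparisons of sets of cells the minimum was 50 CPM in the higher set, in place of 20 CPM. Of the mature oligodendrocyte list 6 of 6 genes at that minimum were higher, and of the OPC list 4 of 8 were lower. The largest gaps upward, named by rank of the mean ratio, included Epcam, a cell adhesion molecule, at 253.5 against 0.607 CPM (physical) and 113 against 3.11 CPM (ischemic). Frmd4a, a scaffold protein, stood at 3527 against 51.0 and 1017 against 76.4 CPM, and the tight junction gene Cldn11 at 632 against 5.46 and 527.5 against 115 CPM. The long noncoding RNA 9530059O14Rik and the genes Poc1a, Parvb, Srcin1 and Mbp were also among the 10.

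The genes with the largest gaps downward were led by Nkain3, at 0 against 445 CPM (physical) and 7.19 against 196 CPM (ischemic). The kainate receptor subunit Grik1 stood at 4.09 against 235 and 0 against 160.2 CPM, and the adhesion molecule Chl1 at 2.04 against 722 and 26.4 against 512 CPM. Gm2164, Car10, Pdgfra, Fstl5, Hs6st3, Inpp4b and Egfem1 were the others.

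A second set was chosen by rule as cells of cluster 6 with at least 3 of the 4 narrow members Enpp6, Bmp4, Neu4 and Gpr17. It held 10 of 100 naïve, 68 of 301 physical and 74 of 294 ischemic cells, or 10.0%, 22.6% and 25.2%. Unthinned, ischemic minus naïve was 15.2 percentage points (6.13 to 22.6). At 2000 UMIs per cell the shares were 6.10% (5 of 82), 5.80% (16 of 276) and 5.56% (15 of 270). The differences were then -0.30 points (-8.25 to 5.05) for physical minus naïve, -0.54 (-8.48 to 4.80) for ischemic minus naïve and -0.24 (-4.45 to 3.98) for ischemic minus physical. A difference between libraries was not detectable at this depth. The cut is a range and not a type, for 12, 56 and 54 cells lay just below it with 2 of the 4 genes at that depth. With at least 2 of 4 required, the shares were 20.7%, 26.1% and 25.6%.

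**Figure D4:**
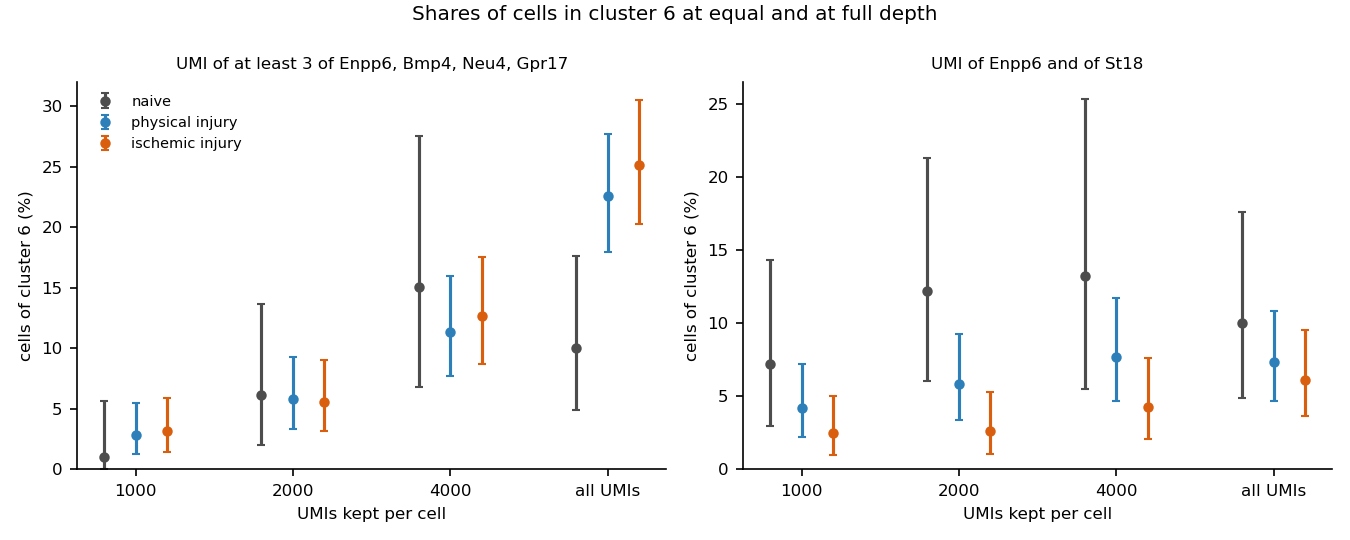
Share of cluster 6 cells with at least 3 of Enpp6, Bmp4, Neu4 and Gpr17, and with both Enpp6 and St18, at full depth and after thinning to 1000, 2000 or 4000 UMIs per cell, by NG2 library. Bars are exact 95% binomial intervals, and the shares with 3 of 4 genes are 10.0, 22.6 and 25.2% at full depth and 6.10, 5.80 and 5.56% at 2000 UMIs, with overlapping intervals at each thinned depth.

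Of the cells with at least 3 of 4 genes, 3 naïve, 47 physical and 57 ischemic cells lacked the pair Enpp6 and St18, and in these Pdgfra stood at 1175, 987 and 629 CPM. The broader rule thus took in many cells that still held the OPC receptor.
Against the other cells of cluster 6, 66 of 4339 genes (1.52%) were at least 2-fold higher in the 3-of-4 cells in both injured libraries and 51 (1.18%) at least 2-fold lower. Of the 4 members that the rule did not use, 3 were at least 2-fold higher in both. St18 stood at 663 against 4.65 CPM (physical) and 467 against 40.8 CPM (ischemic), Fyn at 1626 against 313 and 1207 against 345 CPM, and Bcas1 at 2109 against 573.5 and 2161 against 694 CPM. The values of St18, Fyn and Bcas1 are no separate observations, because the 3-of-4 cells share cells with the Enpp6 and St18 cells. The latter were chosen on St18. They held 784 of the 810 St18 UMIs of cluster 6 in the physical and 666 of 779 in the ischemic library. Of Fyn they held 1662 of 2765 UMIs (physical) and 1097 of 2613 (ischemic), and of Bcas1 1919 of 4018 and 1368 of 4866. Tcf7l2 stood at 338 against 117 and 228 against 116 CPM, and its ischemic log2 ratio of 0.97 (after adding 1 CPM) missed that fold. Of the OPC list, 0 of 8 genes were called, again at a minimum of 50 CPM.

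The named genes higher in these cells were led by 9530059O14Rik, at 335 against 13.2 CPM (physical) and 136 against 26.8 CPM (ischemic), and Frmd4a, at 1453 against 56.2 and 337 against 82.4 CPM. Both were also among the 10 in the Enpp6 and St18 cells, a set that shares cells with this one. Of Frmd4a, the 3-of-4 cells held 1748 (physical) and 488 (ischemic) UMIs and the Enpp6 and St18 cells 1725 and 424. Of 9530059O14Rik, they held 403 and 197 UMIs against 394 and 149. Chn2, a Rac GTPase-activating protein, stood at 640.2 against 59.2 and 335.5 against 60.4 CPM, and the Myc family factor Mycl at 159 against 19.8 and 115 against 16.8 CPM. Cnp, an early myelin enzyme, stood at 1190 against 101 and 658 against 244 CPM. Epb41l2, Rab33a, Bfsp2, Dbndd2 and 9630013A20Rik were the others. Among the lower genes were Tenm2, a synaptic adhesion molecule, at 54.9 against 227 and 41.4 against 117 CPM, the receptor tyrosine kinase gene Alk, at 43.2 against 144 and 31.8 against 89.6 CPM, and Kcnh7, Oxr1, Trpm3, Inpp4b, Sgcz, Hs6st3, Cxcl14 and Utrn.

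Across 31 sums of a cluster in a library with at least 20 cells, the pattern most like the mean log2(CPM + 1) of the 4 narrow members was that of Gucy2f, with a Pearson r of 0.954 among 12394 genes. Next came A930009A15Rik and Gm20713 (both 0.949), Gm28750 (0.948), Gm20642, C130073E24Rik (both 0.946), 4930509J09Rik (0.945) and Gm45159 (0.944). These sums share libraries and depth, and all 8 genes are high in cluster 6 and near 0 in most other clusters. Gm20713 stood at 211, 202 and 91.7 CPM in cluster 6. Of the members, Neu4 (0.927) and Gpr17 (0.918) were nearest and Bmp4 (0.465) and St18 (0.462) farthest. Neu4, Gpr17 and Bmp4 are themselves part of the mean of the 4 narrow members, so their r is in part built in.

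Most listed pathway genes around the members were not called in cluster 6. Of 18 listed transcription factors of the oligodendrocyte lineage 16 reached the minimum, of which 1 was called higher and 0 lower in physical injury against naïve, 2 higher and 0 lower in ischemic injury against naïve, and 0 higher and 1 lower in ischemic against physical injury. The shares of all genes called in those directions were 2.07%, 4.8% and 0.547%, which a single one of 16 genes exceeds. Sox11 stood at 42.2, 88.8 and 119 CPM and Sox8 at 80.9, 162 and 167 CPM in naïve, physical and ischemic cells. Hes5, a Notch target, stood at 128, 133 and 65.3 CPM. The central lineage factors Sox10 (271, 322 and 327 CPM) and Olig2 (385, 549.5 and 437 CPM) were not called.

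Around the ligand Bmp4, 9 of 18 BMP receptors, transducers, targets and antagonists reached the minimum, with 1 lower against naïve in each injured library and none called between these. Of all genes, 2.69% (physical) and 3.37% (ischemic) were called lower against naïve. The one lower was Id3, a BMP target, at 66.8, 25.6 and 27.6 CPM. The receptors Bmpr1a (116, 123 and 117 CPM) and Bmpr2 (98.4, 141 and 152 CPM) were present and not called. Noggin was close to absent at 1.76, 10.3 and 2.53 CPM.
Around Tcf7l2, 11 to 12 of 17 Wnt pathway genes reached the minimum, with 0 called in physical injury against naïve, 1 higher and 1 lower in ischemic injury against naïve and 1 higher in ischemic against physical injury. Of all genes, 4.8% were called higher and 3.37% lower in ischemic injury against naïve, and 1.5% higher in ischemic against physical injury. Sfrp1, a secreted Wnt antagonist, stood at 7.03, 7.66 and 25.6 CPM, and the co-receptor gene Lrp5 at 21.1, 16.4 and 9.62 CPM. Sfrp1 thus reached the minimum only in the ischemic and Lrp5 only in the naïve library. The feedback target Axin2 was not called at 31.6, 37.5 and 44.8 CPM.

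Beside Fyn, 3 of 8 listed Src family kinases reached the minimum and none was called in the 3 comparisons, with Src at 51.0, 53.6 and 46.3 CPM. Beside Neu4, the lysosomal sialidase Neu1 alone of 3 listed reached it, at 58.0, 29.3 and 26.6 CPM. Neu1 was called lower in ischemic injury against naïve, as were 3.37% of all genes. Neu2 and Neu3 stood at 0 CPM in the naïve library and at most 2.11 CPM in the injured ones.

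In mature oligodendrocytes (cluster 4, 103 naïve, 294 physical and 592 ischemic cells) the 4 narrow members were low and St18 was high. Over all libraries Bcas1, Tcf7l2 and Fyn stood lower than in cluster 6, at 753, 45.7 and 103 CPM against 1125, 175 and 698 CPM. St18 stood at 1563, 1975 and 2018 CPM and was found in 98.1%, 100% and 95.3% of cells. Bcas1 stood at 967 CPM (914 to 1022), 970.0 CPM (947 to 993) and 649 CPM (637 to 661), lowest after ischemic injury. Enpp6 was 17.6, 9.37 and 16.9 CPM. Bmp4 and Neu4 were at most 1.39 and 0.404 CPM.

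Among the narrow members, Gpr17 alone reached the minimum there, and only in the ischemic library, so no other narrow member could be called. Gpr17 was called higher in both comparisons with that library. It stood at 6.11 CPM (2.64 to 12) naïve, 9.51 CPM (7.37 to 12.1) physical and 29.7 CPM (27.2 to 32.4) ischemic, from 8, 67 and 514 UMIs in 6, 49 and 197 cells. The naïve and physical intervals overlap and the ischemic one lies above both. Its log2 ratio was 2.28 (1.29 to 3.50) in ischemic injury against naïve and 1.64 (1.27 to 2.03) in ischemic against physical injury.
It was the only member called in cluster 4. In ischemic injury against naïve 5 members reached the minimum, Gpr17 only through its ischemic level. Of these 1 was called higher, against 3.96% of 6568 genes called higher and 1.99% lower. In ischemic against physical injury the same held, 1 of 5, against 1.94% of 6434 genes called higher and 0.28% lower. In physical injury against naïve 0 of 4 members were called, against 0.975% of 6361 genes higher and 0.959% lower. Among members at the minimum, the next largest difference was that of Fyn, at 64.2, 83.5 and 114 CPM. Its log2 ratio was 0.83 (0.52 to 1.16) in ischemic injury against naïve. Enpp6, under the minimum, had log2 ratios of -0.91 (-1.61 to -0.16) in physical injury against naïve and 0.85 (0.46 to 1.26) in ischemic against physical injury.

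Ischemic cells of cluster 4 were deeper, with median UMIs of 13252, 23779 and 29600. At 2000 UMIs per cell Gpr17 was found in 1.02% (0.026 to 5.55), 1.72% (0.560 to 3.96) and 5.68% (3.92 to 7.93) of 98, 291 and 563 cells. At 4000 UMIs it was 2.08% (0.253 to 7.32), 4.81% (2.65 to 7.94) and 8.01% (5.88 to 10.6). At both depths the ischemic interval overlaps that of the naïve and that of the physical library. In the ischemic pericyte clusters 0, 1 and 2 it stood at 2.54, 5.34 and 2.23 CPM.
The OPC list moved with it, summing to 47.4, 95.7 and 164 CPM in cluster 4, mainly Lhfpl3 at 16.1, 51.1 and 98.6 CPM. Pdgfra stood at 0, 0.710 and 2.77 CPM. The 2 OPC genes at the minimum in ischemic injury against naïve, Lhfpl3 and Tnr, were called higher. Tnr stood at 2.29 CPM naïve and 23.0 CPM ischemic. Both were under the minimum in the naïve library and entered through their ischemic level, so this count was close to fixed by the minimum. Matn4, on the same list, did not rise, at 18.9 CPM naïve and 16.7 CPM ischemic in cells without Gpr17. Within the ischemic library, cells with and without Gpr17 had Pdgfra at 2.89 (1.79 to 4.41) and 2.69 (1.77 to 3.91) CPM and Ptprz1 at 12 and 11.9 CPM. Without cells that held UMIs of at least 2 OPC genes, the log2 ratio of Gpr17 (after adding 1 CPM) was 1.98 against naïve and 1.47 against physical injury, where it was 2.11 and 1.55 with them.

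Neu4 did not accompany Gpr17 in cluster 4. Of the UMIs of the 2 genes together, Neu4 made up 1.34% (0.542 to 2.75) in ischemic cluster 4, 26.9% in ischemic cluster 6 and 20% in ischemic cluster 7. In the physical library those shares were 2.90%, 32.9% and 29.1%.
Of the newly formed oligodendrocyte list, 3 of 6 genes at the minimum were called higher in ischemic injury against naïve, against 3.96% of all genes. These were Rras2 at 8.41, 11.5 and 33.0 CPM, Ctps at 55.0, 87.7 and 118 CPM and Cnksr3 at 19.9, 31.0 and 41.6 CPM. Rras2 and Cnksr3 were under the minimum in the naïve library and entered this comparison through their ischemic level, which favours a call upward. Not called were Tmem163 at 163, 283.5 and 312.5 CPM and Itpr2 at 25.2, 12.8 and 18.1 CPM.

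**Figure D5:**
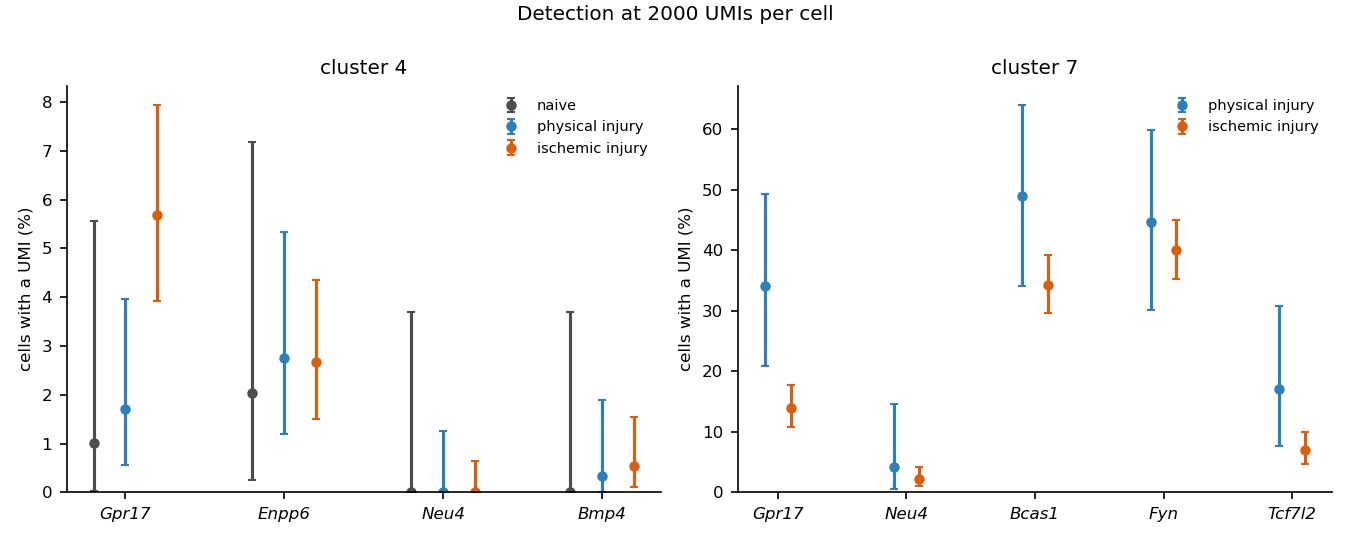
Share of cells, in percent, with at least 1 UMI of the named genes after thinning every cell to 2000 UMIs, in cluster 4 (left, 3 NG2 libraries) and cluster 7 (right, the 2 injured libraries). Bars are exact 95% binomial intervals, and Gpr17 was found in 1.02, 1.72 and 5.68% of naïve, physical and ischemic cells of cluster 4 and in 34.0 and 14.0% of physical and ischemic cells of cluster 7. At 1000 and 4000 UMIs the Gpr17 intervals of cluster 7 overlap.

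In cluster 7, cells with radial glia genes, the value of each member was lower in the ischemic than in the physical library, for Enpp6 from 9 and 1 UMIs. St18 had 12 UMIs in the physical library, 11 of them in 1 cell. The median log2 ratio of all genes was -0.02, and the share of all genes lower at any size was not computed. The naïve library gave 17 cells with a median of 987 UMIs, in which Neu4 and Gpr17 had 1 UMI each and Enpp6, Bmp4 and St18 none, and it was left out of the comparison. In 76 physical and 438 ischemic cells Bcas1 stood at 704 CPM (652 to 759) and 278 CPM (269 to 286). Gpr17 stood at 183.5 CPM (158 to 213) and 73.4 CPM (69.2 to 77.9), and Neu4 at 75.3 CPM (59.0 to 94.6) and 18.4 CPM (16.3 to 20.7). Fyn was 332 and 277.5 CPM and Tcf7l2 79.4 and 46.3 CPM. Bmp4, St18 and Enpp6 stayed under the minimum of 20 CPM.

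Bcas1, Gpr17 and Neu4, 3 of the 5 members at the minimum, were called lower, with log2 ratios of -1.34 (-1.46 to -1.22), -1.32 (-1.55 to -1.08) and -2.03 (-2.41 to -1.64). Over 7888 genes, 3.98% were called lower and 1.76% higher. OPC genes moved the same way, with a sum of 7751 CPM physical and 4704 CPM ischemic and 2 of 8 called lower, and mitosis genes the other way, with 1291 and 2210 CPM. The part of these lists in the members' difference was not tested.
The 5 physical cells richest in each gene held 61.1% of its Bcas1, 47.8% of its Gpr17 and 54.8% of its Neu4 UMIs. With the 5 richest cells of each library left out, 1 member, Neu4, was still called lower, and after a second pass of the study's filters over the already filtered cells likewise 1, Neu4. At 2000 UMIs per cell Gpr17 was found in 34.0% (20.9 to 49.3) of 47 physical and 14.0% (10.8 to 17.8) of 400 ischemic cells. Only at this depth did the intervals not overlap. At 1000 UMIs it was 17.3% (8.23 to 30.3) and 8.94% (6.37 to 12.1). At 4000 UMIs it was 34.0% (20.9 to 49.3) and 23.1% (19.0 to 27.6), and at full depth 43.4% and 44.5%. At 2000 UMIs Neu4 was found in 4.26% (0.520 to 14.5) and 2.25% (1.03 to 4.23). At least 3 of the 4 narrow members were found in 8 of 76 physical (10.5%, 4.66 to 19.7) and 16 of 438 ischemic cells (3.65%, 2.10 to 5.86) at full depth, and in 2 of 47 and 1 of 390 cells at 4000 UMIs. At 2000 UMIs it was 0 of 47 and 0 of 400 cells, which allows shares of up to 7.55% and 0.918%, and over 20 draws the shares reached 2.13% and 0.25%.

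In pericyte clusters 0, 1 and 2 Bmp4, Tcf7l2 and Fyn had the highest levels of the members. Bmp4 stood between 52.1 and 80.3 CPM in pericyte clusters 0, 1 and 2 of the 3 libraries and was found in 22.3% of those cells, about the level in cluster 6. It stood at 3.59 CPM in smooth muscle cells, 5.29 CPM in endothelial cells and 0 CPM in microglia. Tcf7l2 ranged from 61.0 to 102 CPM in the pericyte clusters and from 64.1 to 80.7 CPM in endothelial cells. Fyn ranged from 143 to 205 CPM in pericytes and from 28.5 to 41.5 CPM in smooth muscle cells. Enpp6, Neu4 and Gpr17 were at most 1.66, 3.20 and 5.34 CPM in the pericyte clusters, and Bcas1 and St18 at most 20.3 and 9.61 CPM. Bcas1 reached 17.8 CPM and St18 15.6 CPM in microglia.

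The matrix of uninjured cells held the same 4306 naïve NG2 cells, with equal counts of all 8 members, so it is no second measurement. Of the 100 naïve cells of cluster 6, 98 fell into its cluster 11, and of the 103 of cluster 4, 96 fell into its cluster 12. These 2 clusters held 1 and 3 cells of the uninjured Tbx18-CreERT2/Ai14-flx library.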

How the data were processed

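Cells of 6 pooled libraries (NG2 and Tbx18 lines; naïve, physical injury, ischemic injury) were measured by 10x Genomics 3' single-cell RNA sequencing. The authors aligned reads to mm10 with Cell Ranger (7.0.0 in the submitters' processing notes, a range of versions up to it in the study's methods), removed cells by genes detected, percent mitochondrial UMIs and UMI spread, integrated the libraries and clustered them. They deposited UMI counts per gene and cell with a table of library, cluster and per-cell totals; the deposited percent column gives mitochondrial reads. All columns were used (0 left out). The deposited naïve matrix repeats the naïve NG2 cells.

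From these counts, UMIs were summed per cluster and library, divided by all UMIs (CPM) and given exact 95% Poisson intervals, and shares of cells exact Clopper-Pearson intervals. Intervals of a log2 ratio came from the exact conditional binomial, and those of a difference in shares combined both exact limits. With 1 library per group no test was run. Printed log2 ratios have no pseudocount unless stated. Calls used 1 CPM, a 2-fold difference and 20 CPM in the higher library, or 50 CPM in the higher set when sets of cells were compared. Thinning drew 2000 UMIs per cell without replacement, leaving out shallower cells. Cells with at least 3 of Enpp6, Bmp4, Neu4 and Gpr17 formed a set; the set with Enpp6 and St18 was added after values were seen, and its named genes were picked with the rule that follows. Named genes were the 8 members, the 10 largest mean ratios each way among genes at 50 CPM and past 2-fold in both injured libraries, the 8 highest correlations, and genes of fixed lists. Members and lists were chosen with earlier results of these data known. No doublets were removed. Leaving out the highest Scrublet scores (0.8% per 1000 cells), a second pass of the study's filters over the already filtered cells (at least 200 genes, at most 12% mitochondrial UMIs, within 2 SD), mixed-marker cells, other thresholds, TMM scaling (edgeR 4.0.16 in R 4.3.3) and other thinning depths were alternatives. St18, Bcas1 and Gpr17 promoters were not used here. Some genes picked by these rules are not reported here. Scripts were tested on simulated data and ran in Python 3.11.15 (scanpy 1.11.5, scipy 1.17.1, numpy 2.4.6, matplotlib 3.10.9, pandas 2.3.3).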

Additional observations from a re-analysis of the deposited data

Results flagged for a closer look

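The comparisons use the NG2 line. In the Tbx18-CreERT2/Ai14-flx line, which was recombined and injured the same way, cluster 6 of that line's own matrix held 14 physical, 8 ischemic and 0 naïve cells. St18, Bcas1, Enpp6, Neu4 and Gpr17 are listed because in at least 1 library they stood there above their level in every other cluster. The share of all genes that do so was not computed. Bmp4, Tcf7l2 and Fyn did not meet this rule. Bmp4 had no UMI in cluster 6 of either injured library. Tcf7l2 and Fyn stood there below their highest level in another cluster. The values of the listed genes are noted because the data of that line entered no comparison. After physical injury St18 stood at 1684 CPM (1503 to 1880) in 10 of 14 cells, Bcas1 at 730.0 CPM (613 to 863) in 10 cells and Enpp6 at 37.3 CPM (15.0 to 76.8) in 2 cells. After ischemic injury Bcas1 stood at 1124 CPM (949 to 1322) in 4 of 8 cells, St18 at 655 CPM (523 to 809) in 2 cells, Neu4 at 92.4 CPM (47.7 to 161) in 2 cells and Gpr17 at 77.0 CPM (36.9 to 142) in 1 cell. Enpp6 had no UMI in the 8 ischemic cells, and Neu4 and Gpr17 had none in the 14 physical cells. The highest level in another cluster of that line was 35.8 CPM for St18, 2.84 CPM for Enpp6, 1.45 CPM for Bcas1, 0.251 CPM for Gpr17 and 0 CPM for Neu4. That cluster 6 stands above these levels is built in, because the genes were listed by that rule.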

How the results depend on the processing

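With 1 library per group no replicate could be left out, and the limits are depth and few cells. No paired analysis was possible because each group is 1 library. TMM scaling and a pseudocount of 10 CPM changed no count of members called. In cluster 6, the share of cells with 3 of the 4 genes differed by 12.6 points (physical minus naïve) and 15.2 points (ischemic minus naïve) without thinning, and by 5.36 and 4.82 points at 2000 UMIs per cell with 2 of 4 required. The number of members past 2-fold in physical injury against naïve was 0, but 1 at 1.5-fold, 2 under a second pass of the study's filters (the deposited cells were already filtered) and 2 without the 5 richest cells. In ischemic injury against naïve it was 1, but 2 at 1.5-fold, 2 under the filters (Bmp4 and Gpr17 higher, Enpp6 not called), 2 without the 5 richest cells and 3 without the Enpp6 and St18 cells, all higher. In ischemic against physical injury it was 1, but 0 without mixed-marker cells. The log2 ratio of Enpp6 (after adding 1 CPM) turned to 2.80 against naïve and 1.30 against physical injury without the Enpp6 and St18 cells. Those cells were chosen on Enpp6 and held all 139 of its naïve UMIs. Few Enpp6 UMIs are left without them, and none in the naïve library, so these 2 ratios carry little meaning. Under the filters the ratio turned to 0.53 against physical injury. In cluster 4, 1 member was called in each comparison with the ischemic library; requiring 50 CPM gave 0 in both, and against naïve 1.5-fold, the filters and leaving out the 5 richest cells gave 2 each. In cluster 7 the count of 3 became 5 with no minimum, 1 under the filters and 1 without the 5 richest cells. The Gpr17 difference by Neu4 was 42.2 (naïve), 37.4 (physical) and 60.4 (ischemic) points without thinning and 17.8 points at 4000 UMIs (physical). Of other genes in the 3-of-4 cells, the 66 higher became 108 when the set was chosen after thinning, and the 51 lower became 28 with a pseudocount of 10 CPM, 102 at a minimum of 20 CPM and 297 after thinning. Where not stated, the cause of a change was not tested. Of the alternatives run on the counts of members called, 46 stayed within 1.5 times and 16 did not; of those on single values, 176 stayed, 95 moved and 3 reversed.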
